A study of Mus musculus with 12 samples.

Results

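The 42 genes described here encode proteins of striated muscle, the muscle with ordered contractile units (sarcomeres) found in skeleton and heart. They were chosen by symbol, and all 42 were found among the 23284 genes of the deposited count table. The tissue sequenced was mandibular condylar fibrocartilage, the lining of the jaw joint's condyle, taken whole rather than sorted by cell type. Every library came from female C57BL/6 mice whose ovaries were removed at 16 weeks of age. Tissue was taken at 17 weeks, after 1 week on placebo or on 0.01 mg 17β-estradiol (E2) made for release over 60 days. The groups were formed by genotype and agent: wild-type (WT) with placebo (n = 2), WT with E2 (n = 3), estrogen receptor alpha knockout (ERalphaKO) with placebo (n = 4) and ERalphaKO with E2 (n = 3). The sources used here do not give the knockout allele or whether replicates were separate animals, and p-values therefore measure only how far these samples vary, which may be technical. The study asked which effects of E2 in this tissue pass through estrogen receptor alpha.

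A sarcomere slides myosin filaments along actin filaments. Calcium released by the ryanodine receptor binds the troponin complex and exposes actin to myosin, and a calcium pump then clears it. Skeletal muscle fibers are fast or slow, and each kind uses its own versions of myosin heavy chain, myosin light chain and troponin. Jaw muscles attach close to the condyle, and cartilage is not known to build sarcomeres. In this tissue these genes, taken as a set, are therefore read as a measure of muscle RNA. Single genes need not be: Tnnc1 and Actn3 hardly followed the set, and Eno3 and Pygm kept a floor in poor libraries. In bulk tissue, fewer muscle cells and less RNA per muscle cell cannot be told apart.

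Library totals ran from 9.70 to 28.8 M counts (M, the SI prefix mega), so that 3 counts stood for 0.110 to 0.315 CPM (counts scaled to library size, to a total of 1 M). The targeted gene Esr1 stood at 8.52 to 17.5 CPM in the 5 WT libraries and at 3.65 to 5.78 CPM in the 7 ERalphaKO libraries, without overlap. The 11 fibrocartilage genes looked at, among them Col1a1, Col2a1, Acan, Sox9 and Prg4, summed to between 67597 and 106831 CPM. As a sum, the genes looked at for the tissue label were thus abundant in all 12 libraries. A sum does not show that each of them was. The 8 heart genes looked at summed to between 3.29 and 20.6 CPM, with the highest sum in ERalphaKO placebo. Of these, 3 passed the filter on low counts. The sums ran from 6.85 to 20.6 CPM in ERalphaKO placebo and from 4.85 to 6.50 in ERalphaKO E2. They ran from 3.81 to 4.61 CPM in WT placebo and from 3.29 to 5.97 in WT E2. Among the 8, Nppb, a heart hormone gene, had no count in 11 of 12 libraries. Myh6, the heart myosin, stayed between 0.0366 and 0.819 CPM. In those 11 libraries most of the sum therefore came from heart genes not named here. The low levels of Nppb and Myh6 do not stand for the whole list.

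Promoters of 31 of the 42 genes were found in the RefSeq table of mouse build GRCm38.p6, with 38 start sites, and are described over the 250 bases before the start. The counts themselves were made on the older build mm9. The sequences below are those of Acta1, the most abundant gene of the set, and of the fast and slow versions of troponin C, Tnnc2 and Tnnc1, which went separate ways in the libraries. They cover chr8:123894776-123895025 on the minus strand (Acta1), chr2:164779735-164779984 on the minus strand (Tnnc2) and chr14:31208062-31208311 on the plus strand (Tnnc1), written 5′ to 3′ up to the base before the start. Capitals mark CAGCTG, the form of the E-box that myogenic factors prefer, and the CArG box, which serum response factor binds.
Acta1: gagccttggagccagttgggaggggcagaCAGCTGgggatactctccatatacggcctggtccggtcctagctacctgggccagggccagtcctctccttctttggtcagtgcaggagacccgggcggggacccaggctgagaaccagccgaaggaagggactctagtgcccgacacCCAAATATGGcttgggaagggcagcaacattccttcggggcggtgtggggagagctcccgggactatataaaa
Tnnc2: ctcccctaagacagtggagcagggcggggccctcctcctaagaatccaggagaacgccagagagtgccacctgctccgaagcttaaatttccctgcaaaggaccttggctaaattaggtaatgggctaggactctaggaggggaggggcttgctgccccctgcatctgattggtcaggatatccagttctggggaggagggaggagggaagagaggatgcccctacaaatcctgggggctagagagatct
Tnnc1: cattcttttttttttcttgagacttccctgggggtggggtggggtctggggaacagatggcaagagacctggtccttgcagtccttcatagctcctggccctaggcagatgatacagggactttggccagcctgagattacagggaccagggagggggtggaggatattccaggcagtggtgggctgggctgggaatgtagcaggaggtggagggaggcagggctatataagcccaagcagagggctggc
Acta1 held CAGCTG from -221 to -216 and a CArG box from -73 to -64, counted from the start site. Neither capitalised motif was found in the windows of Tnnc2 and Tnnc1. Motifs were searched on both strands, and CAGCTG is one form of the general E-box CANNTG. The form CAGCTG stood in 44.7% of the muscle start sites and in 13.0% of all 32851 start sites of the table, and the CArG box in 13.2% and 1.47%. The binding site of MEF2 factors, another regulator of muscle genes, stood in 15.8% and 2.92%, and CANNTG in 81.6% and 66.2%. The palindromic estrogen response element (GGTCA and TGACC, 3 bases apart) was found at none of the 38 muscle start sites and at 0.0639% of all. A match in such a window is a description of letters and not a measured binding site.

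Muscle RNA differed widely between libraries of the same group. The 42 genes took 0.00435% and 0.401% of all counts in the WT placebo libraries. In WT E2 they took 0.214%, 0.115% and 0.0435%. In ERalphaKO placebo the shares were 0.00596%, 0.174%, 1.06% and 0.153%, and in ERalphaKO E2 0.0122%, 0.0105% and 0.00442%. Both placebo groups thus held a library almost free of muscle RNA beside libraries rich in it, WT E2 lay in between, and all 3 ERalphaKO E2 libraries were low. Counting error was small against these gaps: the 95% Wilson interval of the lowest share ran from 0.00405% to 0.00467% and that of the highest from 1.055% to 1.063%. The choice of genes matters to the range: over all 115 listed muscle genes, among them genes that many cells use such as Atp2a2 and Tpm1, the shares ran from 0.219% to 1.73%, and the ERalphaKO E2 libraries took 0.245%, 0.220% and 0.219%.

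**Figure D1:**
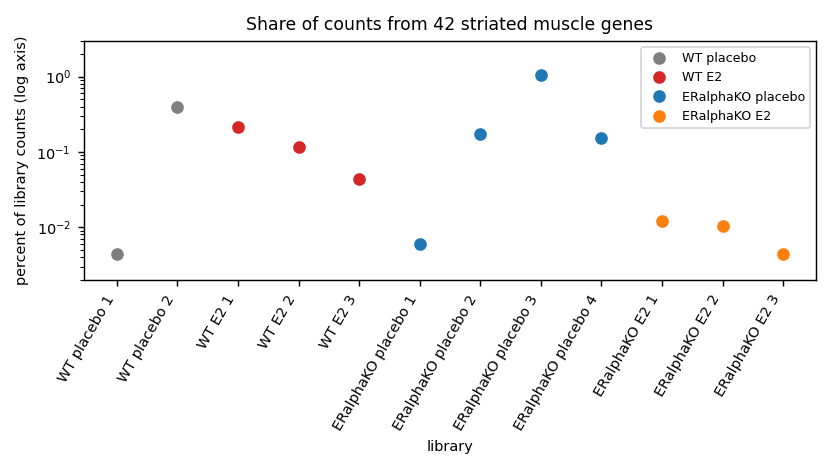
Share of all counts (percent, log axis) that came from the 42 striated muscle genes in each of the 12 libraries, coloured by group, with Wilson 95% intervals that are smaller than the points. Shares ran from 0.00435% in WT placebo replicate 1 to 1.06% in ERalphaKO placebo replicate 3, and the 3 ERalphaKO E2 libraries sat at 0.0122% or below.

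Of the 42 genes, 38 had their highest level in ERalphaKO placebo replicate 3. For the 18 genes with more than 3 counts in their lowest library, the highest library exceeded the lowest by 4.05-fold to 4041-fold, with a median of 260-fold. The pooled within-group standard deviation of log2 CPM had a median of 2.55 over the 41 muscle genes that passed the filter on low counts, against 0.19 over all 14832 genes tested. Of these 41 genes, 39 lay above the 90th percentile of all genes, 0.63. The muscle genes were therefore among the least repeatable in the data, and every comparison below has to be read against that spread.

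In the libraries poorest in muscle RNA, other genes led the set. Eno3, Pygm and Ttn made 57.8% of the muscle counts in WT placebo replicate 1, 46.6% in ERalphaKO placebo replicate 1 and 53.4% in ERalphaKO E2 replicate 3. In ERalphaKO placebo replicate 3 they made 10.6%, and Acta1 and Mb were the most abundant. In the 3 poor libraries just named these genes stood at 5.04 to 11.7 CPM each, above Acta1 and Neb.

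**Figure D2:**
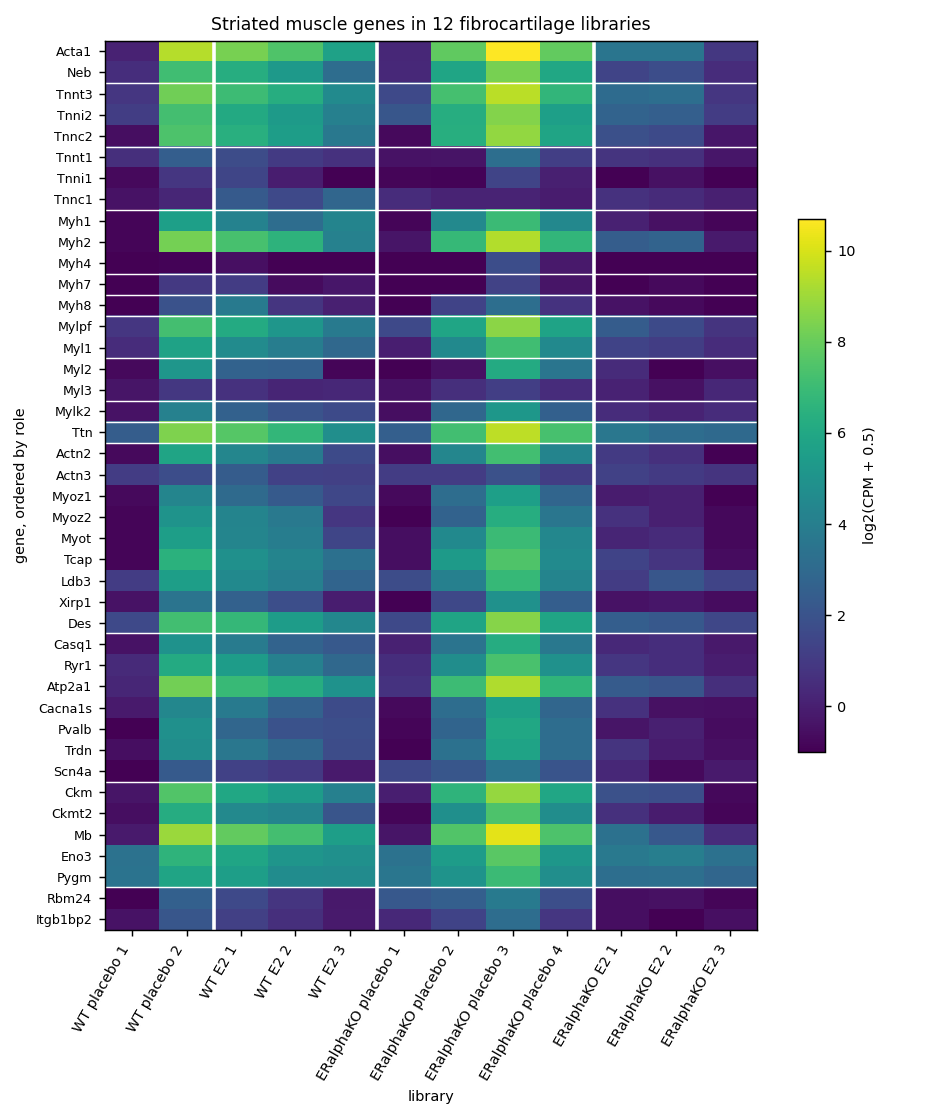
Levels of the 42 striated muscle genes, log2(CPM + 0.5), in the 12 libraries (columns, split by group) with genes ordered by role (rows, split by role). Whole columns are bright or dark together, brightest in ERalphaKO placebo replicate 3, while Tnnc1, Actn3 and Myl3 stay low throughout.

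Among the thin filament genes, Acta1, skeletal alpha-actin, stood at 0.586 and 668 CPM in WT placebo, 318, 177 and 52.1 in WT E2, 0.718, 228, 1666 and 238 in ERalphaKO placebo and 11.1, 11.0 and 1.38 in ERalphaKO E2. The lowest placebo library of each genotype lay below every E2 library, and the other placebo libraries lay above all ERalphaKO E2 libraries. Neb, the giant protein along the thin filament, ran from 0.778 to 315 CPM, with its 2 extremes both in ERalphaKO placebo.

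The fast troponins followed Acta1. Tnnt3, fast troponin T, which ties troponin to tropomyosin, stood at 1.29 and 288 CPM in WT placebo, 130.2, 77.6 and 23.6 in WT E2, 2.45, 152, 714 and 105 in ERalphaKO placebo and 8.01, 8.93 and 1.28 in ERalphaKO E2. Tnni2, the fast inhibitory subunit, stood at 1.70 and 146 CPM in WT placebo, 68.3, 41.0 and 16.8 in WT E2, 3.83, 78.5, 366 and 48.5 in ERalphaKO placebo and 6.14, 5.36 and 1.58 in ERalphaKO E2. Tnnc2, the fast calcium-binding subunit, stood at 0.176 and 172 CPM in WT placebo, 82.7, 45.7 and 12.2 in WT E2, 0.120, 79.3, 443 and 56.5 in ERalphaKO placebo and 3.13, 2.63 and 0.307 in ERalphaKO E2. In each of the 3 genes replicate 1 of both placebo groups was near the ERalphaKO E2 level or under it.

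The slow troponins were scarce. Tnnt1, slow troponin T, stood at 0.997 and 5.16 CPM in WT placebo, 2.76, 1.46 and 1.08 in WT E2, 0.239, 0.271, 8.75 and 1.77 in ERalphaKO placebo and 1.20, 1.05 and 0.307 in ERalphaKO E2. Tnni1, the slow inhibitory subunit, stood at 0.117 and 1.32 CPM in WT placebo, 2.26, 0.471 and 0 in WT E2, 0.0598, 0.0451, 2.169 and 0.523 in ERalphaKO placebo and 0, 0.210 and 0 in ERalphaKO E2. Tnnc1, the calcium-binding subunit of slow and heart fibers, stood at 0.235 and 0.696 CPM in WT placebo, 4.46, 2.54 and 6.76 in WT E2, 0.897, 0.631, 0.620 and 0.442 in ERalphaKO placebo and 1.08, 0.841 and 0.511 in ERalphaKO E2. Tnnc1 was the gene of the set whose 3 WT E2 libraries all lay above every other library, and it was low in ERalphaKO placebo replicate 3, where 38 of the others peaked.

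Myosin heavy chains are the motors of the thick filament. Myh2, the chain of fast oxidative fibers, stood at 0.0586 and 309 CPM in WT placebo, 158, 94.4 and 17.3 in WT E2, 0.299, 114, 648 and 102 in ERalphaKO placebo and 4.94, 6.10 and 0.409 in ERalphaKO E2. Myh1, the chain of the intermediate fast fibers, stood at 0.0586 and 48.5 CPM in WT placebo, 17.5, 8.47 and 18.8 in WT E2, 0.0598, 22.4, 125 and 21.5 in ERalphaKO placebo and 0.542, 0.210 and 0.0511 in ERalphaKO E2. Of the libraries with at least 100 heavy chain counts, 1 had Myh1 at the level of Myh2, WT E2 replicate 3. Myh4, the chain of the fastest fibers, stood at 0 and 0.0366 CPM in WT placebo, 0.201, 0 and 0 in WT E2, 0, 0, 2.94 and 0.362 in ERalphaKO placebo and 0, 0 and 0 in ERalphaKO E2, and it was the 1 gene of the 42 that failed the filter on low counts. Myh7, the slow and heart chain, stood at 0 and 1.43 CPM in WT placebo, 1.61, 0.141 and 0.307 in WT E2, 0, 0, 2.01 and 0.281 in ERalphaKO placebo and 0, 0.105 and 0 in ERalphaKO E2. Myh8, the perinatal chain, stood at 0 and 3.33 CPM in WT placebo, 13.1, 1.22 and 0.512 in WT E2, 0, 2.07, 8.87 and 1.13 in ERalphaKO placebo and 0.241, 0.105 and 0 in ERalphaKO E2, with its highest level in WT E2 replicate 1. Myh1, Myh2, Myh4 and Myh8 are near-identical neighbours on chromosome 11, and the sources used here do not say how reads matching several of them were counted, so their split is uncertain.

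Of the light chains of fast fibers, Mylpf, the regulatory chain, stood at 1.29 and 148 CPM in WT placebo, 71.2, 35.1 and 13.7 in WT E2, 2.45, 57.7, 407 and 55.6 in ERalphaKO placebo and 4.76, 2.63 and 1.18 in ERalphaKO E2. Myl1, the essential chain, stood at 0.880 and 53.6 CPM in WT placebo, 24.4, 14.96 and 7.32 in WT E2, 0.479, 23.1, 139 and 22.8 in ERalphaKO placebo and 2.05, 1.68 and 0.920 in ERalphaKO E2. Myl2, the slow regulatory chain, stood at 0.117 and 35.2 CPM in WT placebo, 5.82, 5.55 and 0.0512 in WT E2, 0, 0.225, 71.3 and 11.1 in ERalphaKO placebo and 0.843, 0 and 0.204 in ERalphaKO E2. It was at 0.0512 CPM in WT E2 replicate 3 and at 0.225 CPM in ERalphaKO placebo replicate 2, libraries in which its fast partner was not low. Myl3, the slow essential chain, stood at 0.293 and 1.39 CPM in WT placebo, 1.10, 0.659 and 0.717 in WT E2, 0.239, 0.992, 1.78 and 0.885 in ERalphaKO placebo and 0.602, 0.210 and 0.715 in ERalphaKO E2. Mylk2, the kinase that phosphorylates the fast regulatory chain, stood at 0.235 and 17.3 CPM in WT placebo, 5.72, 3.53 and 2.61 in WT E2, 0.179, 7.03, 36.1 and 5.59 in ERalphaKO placebo and 0.903, 0.631 and 0.920 in ERalphaKO E2.

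Ttn, the spring that spans from Z-disc to the middle of the sarcomere, stood at 5.04 and 343 CPM in WT placebo, 198, 107 and 27.1 in WT E2, 5.32, 143, 732 and 157 in ERalphaKO placebo and 11.9, 8.62 and 7.46 in ERalphaKO E2. Its lowest level was above that of Acta1, Neb and the fast troponins in the same library, though its transcript is far longer and catches more reads. Des, desmin of the intermediate filaments, stood at 2.46 and 143 CPM in WT placebo, 111, 44.2 and 20.9 in WT E2, 2.45, 57.0, 378 and 56.5 in ERalphaKO placebo and 5.12, 4.20 and 2.30 in ERalphaKO E2. Tcap, which caps titin in the Z-disc, stood at 0.0586 and 88.8 CPM in WT placebo, 29.04, 18.8 and 9.47 in WT E2, 0.179, 41.6, 179 and 23.9 in ERalphaKO placebo and 2.05, 1.26 and 0.153 in ERalphaKO E2. All 3 genes were highest in ERalphaKO placebo replicate 3 and next highest in WT placebo replicate 2.

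Actn2, the alpha-actinin that crosslinks actin in the Z-disc, stood at 0.117 and 57.5 CPM in WT placebo, 20.2, 13.7 and 2.61 in WT E2, 0.179, 20.4, 143 and 18.7 in ERalphaKO placebo and 1.51, 1.05 and 0 in ERalphaKO E2. Myoz1, the myozenin of fast fibers, stood at 0.117 and 19.4 CPM in WT placebo, 7.73, 4.47 and 2.36 in WT E2, 0.120, 8.48, 47.9 and 6.63 in ERalphaKO placebo and 0.422, 0.525 and 0 in ERalphaKO E2. Myoz2, the myozenin of slow and heart fibers, stood at 0.0586 and 32.2 CPM in WT placebo, 19.1, 12.7 and 1.33 in WT E2, 0, 5.82, 78.3 and 11.7 in ERalphaKO placebo and 1.08, 0.525 and 0.102 in ERalphaKO E2. Actn3, the alpha-actinin of fast fibers, stayed between 1.18 and 4.77 CPM in all libraries, unlike Actn2. The other Z-disc genes, Myot, Ldb3 and Xirp1, had maxima of 127, 115 and 29.5 CPM, each in ERalphaKO placebo replicate 3.

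Among genes of excitation and calcium handling, Atp2a1, the calcium pump of fast fibers, stood at 0.704 and 293 CPM in WT placebo, 116, 78.9 and 31.0 in WT E2, 1.14, 129.9, 633 and 99.3 in ERalphaKO placebo and 4.58, 3.78 and 0.971 in ERalphaKO E2. Ryr1, the calcium release channel, stood at 0.821 and 69.8 CPM in WT placebo, 43.9, 16.6 and 7.27 in WT E2, 0.957, 26.2, 159.9 and 29.4 in ERalphaKO placebo and 1.32, 0.946 and 0.460 in ERalphaKO E2. Casq1, which stores calcium in the sarcoplasmic reticulum, stood at 0.235 and 30.8 CPM in WT placebo, 14.0, 6.12 and 4.30 in WT E2, 0.538, 10.9, 74.3 and 12.4 in ERalphaKO placebo and 0.783, 0.946 and 0.358 in ERalphaKO E2. These 3 genes rose and fell with Acta1 from library to library. Cacna1s, Pvalb and Trdn (the voltage sensor, the calcium buffer parvalbumin and triadin) peaked at 49.8, 62.4 and 55.5 CPM, again in ERalphaKO placebo replicate 3. Scn4a, the sodium channel of the muscle membrane, stood at 0 and 4.54 CPM in WT placebo, 1.91, 1.41 and 0.410 in WT E2, 2.39, 3.88, 10.9 and 3.62 in ERalphaKO placebo and 0.723, 0.105 and 0.409 in ERalphaKO E2, and in ERalphaKO placebo replicate 1 it was higher than in WT E2, though that library was among the poorest in muscle RNA.

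Of the energy genes, Mb, the oxygen store myoglobin, stood at 0.411 and 495 CPM in WT placebo, 241, 147 and 46.7 in WT E2, 0.299, 183, 1209 and 170.5 in ERalphaKO placebo and 9.75, 4.10 and 0.920 in ERalphaKO E2. Ckm, muscle creatine kinase, stood at 0.293 and 186 CPM in WT placebo, 62.1, 42.7 and 16.5 in WT E2, 0.479, 97.1, 459.5 and 61.2 in ERalphaKO placebo and 3.19, 3.05 and 0.102 in ERalphaKO E2. Eno3, the muscle form of the glycolytic enzyme enolase, stood at 10.1 and 97.9 CPM in WT placebo, 57.5, 33.6 and 28.6 in WT E2, 10.3, 43.2, 208 and 35.7 in ERalphaKO placebo and 12.6, 15.8 and 9.66 in ERalphaKO E2. Eno3 kept about 10 CPM where Mb and Ckm fell under 1 CPM. Pygm, the enzyme that breaks down glycogen in muscle, stood at 10.5 and 56.7 CPM in WT placebo, 46.2, 25.0 and 24.4 in WT E2, 11.7, 31.7, 126 and 27.3 in ERalphaKO placebo and 8.79, 9.14 and 6.85 in ERalphaKO E2 and kept a similar floor. Ckmt2, the mitochondrial creatine kinase, ran from 0.0511 to 171 CPM.

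The last 2 genes stood outside these roles. Rbm24, an RNA-binding protein that regulates splicing in muscle, stood at 0 and 5.46 CPM in WT placebo, 2.51, 1.27 and 0.358 in WT E2, 4.19, 5.37, 13.6 and 2.98 in ERalphaKO placebo and 0.181, 0.210 and 0.0511 in ERalphaKO E2. In all 3 ERalphaKO E2 libraries it lay under 0.511 CPM, the level of the filter on low counts, and it passed through other groups. All 4 ERalphaKO placebo libraries, the one poor in muscle RNA included, lay above all 3 ERalphaKO E2 libraries. Itgb1bp2, melusin, which binds integrin at the muscle membrane, stood at 0.235 and 3.85 CPM in WT placebo, 1.81, 0.988 and 0.410 in WT E2, 0.778, 2.03, 8.597 and 1.29 in ERalphaKO placebo and 0.181, 0 and 0.204 in ERalphaKO E2, also without overlap between these 2 groups.

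**Figure D3:**
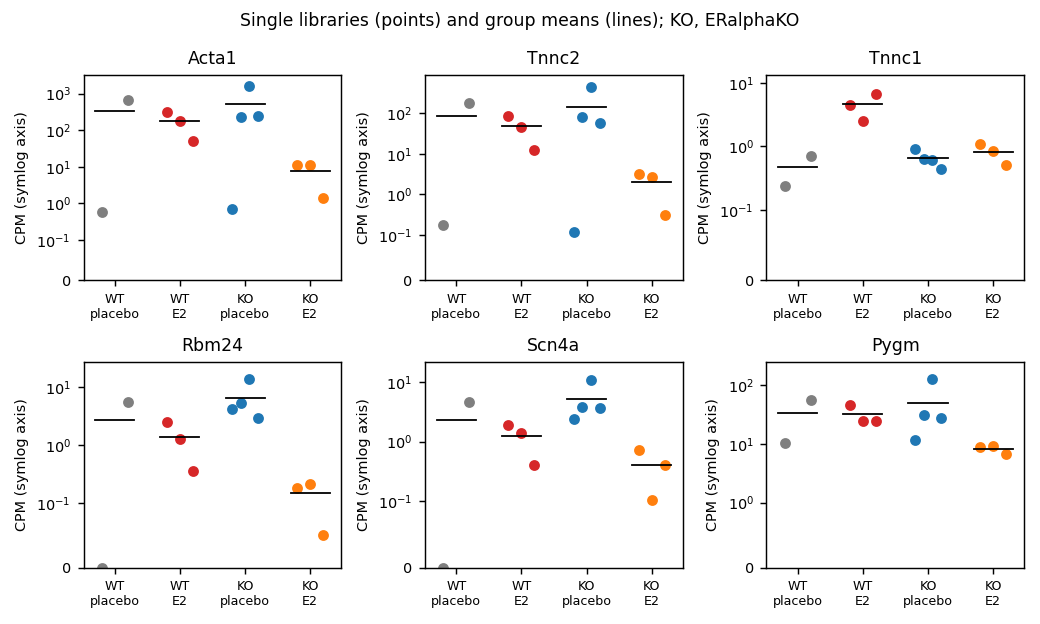
CPM (symlog axis, different in each panel) of 6 genes in the 12 libraries; points are single libraries and lines are group means. Acta1 and Tnnc2 spread over orders of magnitude within the placebo groups, Tnnc1 is high in the 3 WT E2 libraries alone, and Rbm24, Scn4a and Pygm are lower in every ERalphaKO E2 library than in every ERalphaKO placebo library.

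In libraries with enough counts to compare, the muscle RNA was mostly of the fast type. Pairs of fast and slow versions were compared as the slow share of their summed counts, within a library and without a test, in libraries with at least 100 counts for the pair. The slow share of troponin I was 0% to 3.20% in 8 libraries, of troponin T 0.178% to 13.1% in 8, and of the essential light chain 1.27% to 8.92% in 7. The slow heavy chain Myh7 made 0% to 0.904% of its sum with Myh1, Myh2 and Myh4 in 7 libraries. In ERalphaKO placebo replicate 2 it had 0 of 3017 counts, which allows a share of up to 0.0994%. Myozenin was the exception: the slow version Myoz2 made 40.7% to 73.9% in 6 libraries.

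The regulatory light chain split the libraries. Slow Myl2 made 19.2% in WT placebo replicate 2, 7.55% and 13.7% in WT E2 replicates 1 and 2, and 14.9% and 16.7% in ERalphaKO placebo replicates 3 and 4. In WT E2 replicate 3 it was 1 of 268 counts, 0.373% (Wilson 95% interval 0.0659% to 2.08%), and in ERalphaKO placebo replicate 2 it was 5 of 1284 counts, 0.389% (0.166% to 0.908%). These 2 libraries therefore held fast muscle RNA with almost no slow regulatory chain. Replicate 2 of ERalphaKO placebo was also the lowest for slow troponin T among libraries with enough counts (6 of 3372 counts).

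Slow troponin C did not follow the other slow genes. Tnnc1 made 0.402% of the pair in WT placebo replicate 2 and 0.790%, 0.140% and 0.777% in ERalphaKO placebo replicates 2 to 4. In WT E2 it made 5.12%, 5.26% and 35.7%, the last from 132 of 370 counts (Wilson 95% interval 31.0% to 40.7%). Among libraries with at least 100 counts for the pair, the 3 WT E2 libraries lay above the 4 placebo libraries. The 5 libraries poor in muscle RNA had 7 to 70 counts for the pair and higher shares than 2 of the 3 WT E2 libraries. The share was 57.1% in WT placebo replicate 1, 88.2% in ERalphaKO placebo replicate 1, and 25.7%, 24.2% and 62.5% in ERalphaKO E2. A high slow share was thus not particular to WT E2. In these 5 libraries Tnnc1 stood at 0.235 to 1.08 CPM and Tnnc2 at 0.120 to 3.13 CPM. In WT E2 replicate 3, where Tnnc1 was highest, slow troponin I had 0 of 329 counts, which allows a share of up to 0.912%.

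**Figure D4:**
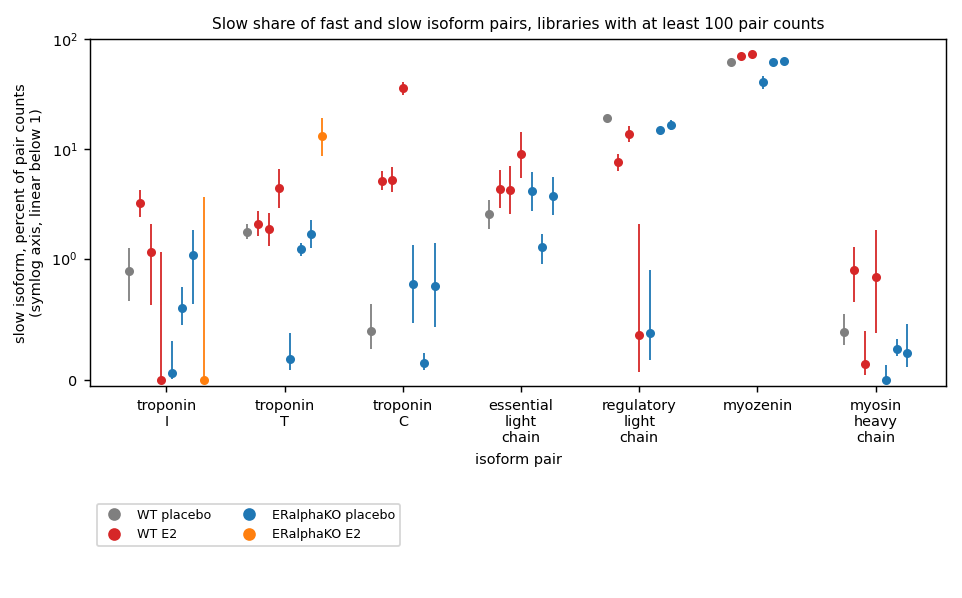
Slow share of 7 fast and slow pairs (percent of pair counts, symlog axis that is linear below 1) in libraries with at least 100 pair counts, coloured by group; bars are Wilson 95% intervals for counting error alone. Most shares lie under 10%, myozenin lies between 40.7% and 73.9%, and for troponin C the 3 WT E2 libraries (5.12%, 5.26% and 35.7%) lie above the 4 placebo libraries plotted.

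Within the heavy chains, Myh2 made 81.5% to 90.6% of the counts and Myh1 8.12% to 17.1% in 6 of the 7 libraries with at least 100 heavy chain counts. WT E2 replicate 3 stood apart with 46.8% Myh2 (Wilson 95% interval 43.2% to 50.5%) and 51.0% Myh1 (47.3% to 54.6%). Myh8 made 6.89% in WT E2 replicate 1 and 0.896% to 1.502% in the other 6. Myh4 reached at most 0.374%. The split of the counts among heavy chains thus differed between libraries of a group, with the uncertainty given above for near-identical genes. The 3 ERalphaKO E2 libraries had 95, 62 and 9 heavy chain counts, too few to compare their split.

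With E2 in WT, 1 of the 41 muscle genes tested was higher and none was lower at an adjusted p under 0.05, where 0.458% of all genes were called. That gene was Tnnc1, which rose from 0.465 to 4.59 CPM on average, a log2 fold change of 3.23 ± 0.58 (SE, edgeR adjusted p = 0.0443), and its groups did not overlap. The share of all genes that were higher without overlap was 13.2%. Acta1 had a log2 fold change of -0.88 ± 2.03, Tnnc2 of -0.89 ± 1.84 and Myh2 of -0.78 ± 1.97, each smaller than its error. Of the 41 genes, 37 had a negative estimate, with a median of -0.82 against -0.00 over all genes tested. The sign of that median rested on single libraries: leaving out WT placebo replicate 2 made it 5.19, and leaving out replicate 1 of that group made it -1.79. The Tnnc1 call held in 1 of 12 fits that each left out a library, with an adjusted p of 0.0187 to 0.371 and a log2 fold change of 2.71 to 4.25.

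With E2 in ERalphaKO, none of the 41 genes passed in edgeR, and neither did any other gene (0.0% called). At an unadjusted p under 0.05, 34 of the 41 were lower and none was higher, where 4.22% of all genes were lower, and the smallest adjusted p was 0.848. The median estimate was -5.34 (all genes 0.00) with a median SE of 1.91, and 40 of 41 estimates were negative. Without ERalphaKO placebo replicate 3, the library richest in muscle RNA, the median was -3.45, and omitting ERalphaKO E2 replicate 1 made it -5.99. Rbm24 had the smallest p, with -5.53 ± 1.43 (edgeR adjusted p = 0.848). DESeq2 called it alone of the set (adjusted p = 0.0339), and the numbers DESeq2 called over all genes are given at the end. Rbm24 reached the level of the filter on low counts in no ERalphaKO E2 library, so it passed through other groups. The difference was -6.12 ± 2.30 for Acta1, -7.29 ± 2.26 for Myh1, -5.92 ± 1.86 for Ryr1, -6.16 ± 2.05 for Atp2a1 and -2.59 ± 0.82 for Pygm. Tnnc1 had 0.33 ± 0.47.

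No overlap was found for 4 genes between ERalphaKO placebo and ERalphaKO E2, namely Rbm24, Itgb1bp2 (-4.39 ± 1.29), Scn4a (-3.55 ± 1.18) and Pygm. All 4 were lower with E2, a state found for 3.09% of all genes. The other 37 overlapped. Of the 4, Rbm24 and Itgb1bp2 reached the filter's level in no ERalphaKO E2 library and lay near the 3-count floor there. For 3 other genes at very low counts the sums over each group are given, and they rest mostly on ERalphaKO placebo replicate 3. Myh4 had 0 counts with E2 and 85 with placebo, 76 of them in that library. Myh7 had 1 and 59 counts, 52 of them there, and Tnni1 had 2 and 71, 56 of them there.

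Scn4a lies 2.98 kb from Cd79b, a gene of the B-cell receptor, on chromosome 11 of GRCm38. Cd79b, singled out after its values were seen, stood at 0.645 and 0.476 CPM in WT placebo, 1.00, 0.235 and 1.59 in WT E2, 54.9, 60.6, 17.6 and 31.8 in ERalphaKO placebo, and 33.8, 1.68 and 6.39 in ERalphaKO E2. In ERalphaKO placebo replicate 1, Cd79b stood at 54.9 CPM and Scn4a at 2.39 CPM, and in ERalphaKO E2 replicate 1 at 33.8 and 0.723 CPM. Whether Cd79b transcripts had a part in the Scn4a counts was not tested.

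Between genotypes under placebo no muscle gene passed in edgeR, where 0.0135% of all genes were called, and none had an unadjusted p under 0.05, where 8.93% of all genes did. DESeq2 called none of the 41 either, and the numbers it called over all genes are given at the end. The median estimate was 0.62 with a median SE of 1.55, and 37 of 41 estimates were positive. Acta1 had 0.67 ± 2.01, Myh2 0.48 ± 1.93 and Rbm24 1.23 ± 1.16. No gene was free of overlap, a state that 10.5% (higher) and 10.6% (lower) of all genes had. Here too single libraries set the sign: the median became 6.76 when WT placebo replicate 2 was left out, -0.33 when replicate 1 of that group was, and -0.93 when ERalphaKO placebo replicate 3 was.

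Between genotypes under E2, all 41 estimates were negative and 1 gene was called, where 1.1% of all genes were. Tnnc1 was lower in ERalphaKO by -2.50 ± 0.48 (SE, edgeR adjusted p = 0.0385), from 4.59 to 0.812 CPM on average. The call held in 4 of 12 fits that left out a library, with an adjusted p of 0.0196 to 0.173. The median of the 41 genes was -3.82 (SE 1.86, all genes -0.00), and -2.98 without WT E2 replicate 1. No overlap between the groups was found for 35 genes, all lower in ERalphaKO, against 8.94% of all genes. Acta1 (-4.57 ± 2.19), Mb (-4.88 ± 2.22) and Tnnt3 (-3.71 ± 1.83) belonged to these 35 and did not pass. The 6 genes that overlapped were Tnnt1, Tnni1, Myl2, Myl3, Actn3 and Scn4a. At an unadjusted p under 0.05, 10 were lower, where 5.83% of all genes were. When this pair of groups was fitted alone, without the spread of the placebo groups, 4 genes were called: Myh1 (-5.77 ± 0.63, edgeR adjusted p = 0.0157), Pvalb (-3.85 ± 0.54, 0.0448), Atp2a1 (-4.66 ± 0.67, 0.0489) and Pygm (-1.96 ± 0.28, 0.0489). Tnnc1 was not among them. How many genes of all kinds this fit called is stated in the section on how results depend on the processing. A share of the genes tested is not given for it, so the 4 are a description only.

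The genotypes' difference in E2 effect did not pass for any of the 41 genes (0.0539% of all genes were called), with an unadjusted p under 0.05 for 3, all lower (3.45% of all genes), and a median estimate of -4.44 (SE 2.57). Omitting WT placebo replicate 2 made it -10.68, and omitting replicate 1 of that group -3.48. Omitting WT E2 replicate 1 made it -3.72, and omitting ERalphaKO placebo replicate 3 made it -2.80. Tnnc1 had -2.90 ± 0.73 (edgeR adjusted p = 0.353) and Rbm24 -4.52 ± 1.91 (adjusted p = 0.704). So the Tnnc1 response, called in WT and not in ERalphaKO, was not shown to differ between genotypes. These comparisons share groups with each other and are not independent of one another.

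**Figure D5:**
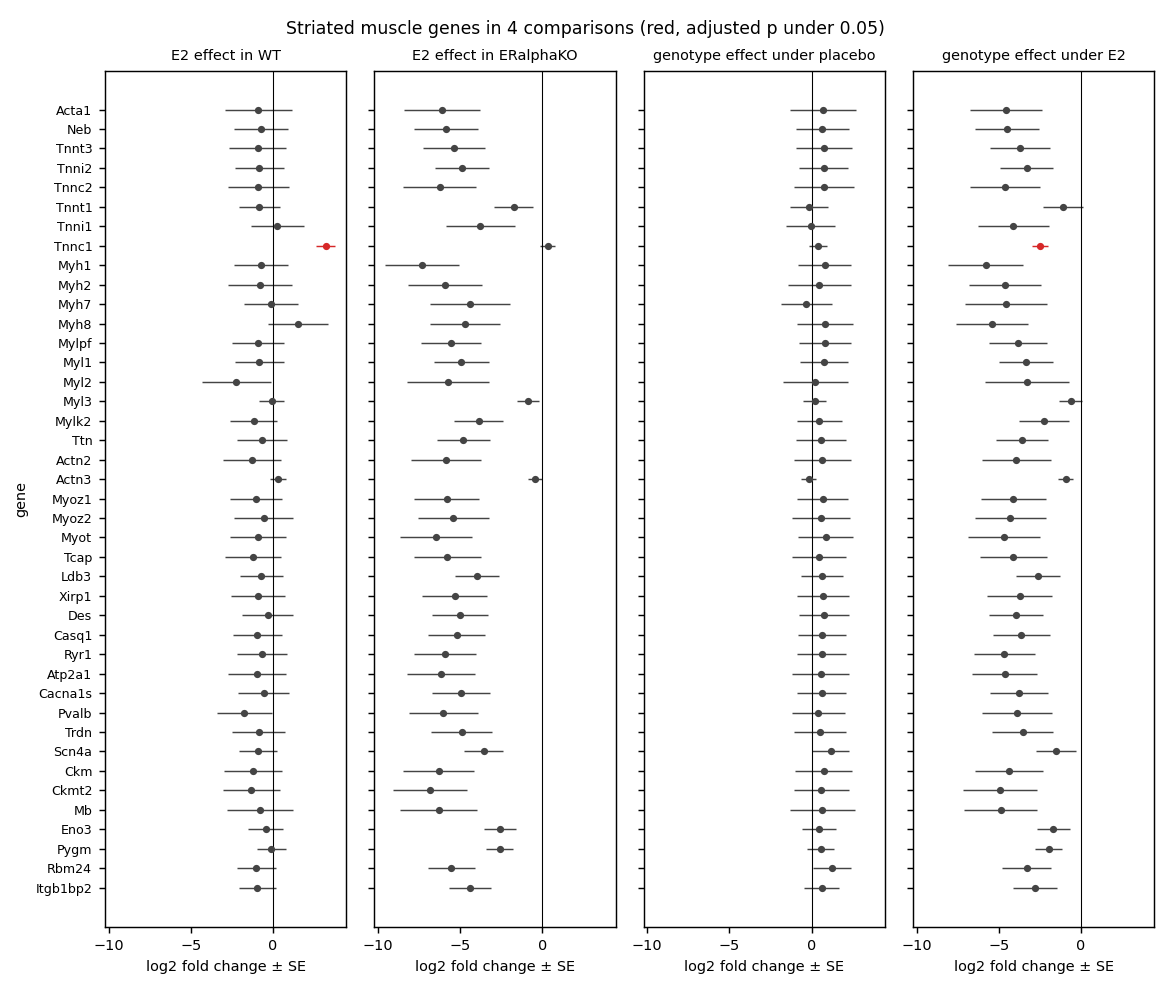
Log2 fold change ± SE of the 41 tested muscle genes (rows, ordered by role) in 4 comparisons (panels); red marks an adjusted p under 0.05. Bars for most genes span more than 1 log2 unit to either side; Tnnc1 is the gene marked, at 3.23 for the WT E2 effect and -2.50 for genotype under E2.

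Other genes rose and fell with the muscle set inside the groups. A muscle score, the mean log2 CPM of the 41 genes, ranged from -1.07 to 5.10 in WT placebo, 2.06 to 4.27 in WT E2, -0.77 to 6.22 in ERalphaKO placebo and -0.93 to 0.63 in ERalphaKO E2. Each gene was then fitted on this score beside the group means. Of 14791 genes outside the set, 167 had a positive slope (1.13%) and none a negative one at an edgeR adjusted p under 0.05. The 10 closest by correlation over the 12 libraries after centring by group had r of 0.99 to 1.00 and included Kbtbd10, Eef1a2, Fsd2, Xirp2, Rpl3l, Hfe2, Smtnl1, Ano5 and Sh3bgr. Kbtbd10 stood at 0.235 CPM in WT placebo replicate 1 and at 91.0 CPM in ERalphaKO placebo replicate 3.

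Among listed sarcomere genes outside the set, 19 of 25 tested had a positive slope. Those with the smallest p included Nrap, which anchors actin filaments (1.22 ± 0.05 log2 units per unit of score), Hspb7, a small heat shock protein (1.03 ± 0.05), and Smyd1, a methyltransferase of sarcomere assembly (1.11 ± 0.07). Of excitation and calcium genes 7 of 15 followed, with Srl at 0.61 ± 0.04 and Jsrp1 at 0.88 ± 0.07. Of energy genes 8 of 15 followed, among them Pgam2 (0.74 ± 0.05) and the muscle subunits of cytochrome oxidase Cox7a1 (0.73 ± 0.05), Cox8b (1.32 ± 0.11) and Cox6a2 (1.17 ± 0.10). Genes of these lists that many cells use did not pass: Atp2a2 had a slope of 0.03 and Tpm1 of 0.07.

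Of the neuromuscular junction and membrane genes 2 of 13 followed, 1 of them Art1 (0.78 ± 0.05). Of 11 genes of muscle precursors 3 followed: Myf6 (1.33 ± 0.12), Myod1 (1.04 ± 0.12) and Myog (1.28 ± 0.22), the transcription factors that drive muscle differentiation. Myf6 stood at 0 and 2.49 CPM in WT placebo, 1.86, 1.13 and 0.102 in WT E2, 0, 0.947, 6.89 and 0.764 in ERalphaKO placebo and 0, 0 and 0 in ERalphaKO E2. It had no count in the libraries poorest in muscle RNA.

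Markers of other cells were looked at the same way. None of 6 smooth muscle, 3 heart, 8 tendon, 10 granulocyte or 11 fibrocartilage genes had a slope that passed, and 1 of 8 adipocyte genes did, Plin4 (0.71 ± 0.08). In summed CPM the tendon genes ran from 9624 to 14552 and the smooth muscle genes from 288 to 444 over the 12 libraries. The granulocyte genes ran from 26.8 to 16867 in ERalphaKO placebo and from 18.4 to 7258 in ERalphaKO E2. Their marker S100a9 stood at 5359 CPM in ERalphaKO placebo replicate 3, the library richest in muscle RNA, and at 25.2 CPM in replicate 1 of that group. Their part in the results was not tested.

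The muscle score and the groups were partly entangled. Of the variance of the score, 31.2% lay between groups. The score differed by 1.20 between WT E2 and WT placebo and by 1.19 between the genotypes under placebo, against a pooled within-group standard deviation of 2.45. It differed by -3.21 between ERalphaKO E2 and ERalphaKO placebo and by -3.23 between ERalphaKO E2 and WT E2. With the score as a covariate, the comparisons kept 96.5% (E2 in WT), 73.1% (E2 in ERalphaKO), 96.3% (genotype under placebo), 75.5% (genotype under E2) and 77.8% (the difference of E2 effects) of the information they had without it. The 3 comparisons that involve ERalphaKO E2 therefore lost the most to muscle content.

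Adding the score changed the number of genes called from 68 to 45 for E2 in WT (39 in both, 0.303% of genes with the score). It went from 2 to 1 for genotype under placebo (1 in both, 0.00674%) and from 163 to 97 for genotype under E2 (81 in both, 0.654%). It went from 8 to 0 for the difference of E2 effects and stayed at 0 for E2 in ERalphaKO. None of the genes called without the score had a slope on it that passed. Greb1, an estrogen-induced gene, was called for the difference of E2 effects without the score (-5.85 ± 0.56, edgeR adjusted p = 0.00862) and not with it (-5.42 ± 0.62, adjusted p = 0.0797). Trpc6, a calcium channel, went from -4.21 ± 0.49 to -4.19 ± 0.62, Gbp8 from -4.89 ± 0.61 to -4.91 ± 0.76, Gbp4 from -3.66 ± 0.41 to -3.71 ± 0.49, and Thbs1 from -2.01 ± 0.25 to -1.85 ± 0.29. In all 5 the estimate moved by less than its error while the error grew.

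For genotype under E2, Hcn4, Ank3, Kcnk1, Dtx4 and Sept6 led the genes called without the score only, and Bahcc1, Fras1, Slc7a9, Hspa8 and Dbndd2 those called with it only. Hspa8, a heat shock protein present in all cells, went from 0.34 ± 0.14 to 0.57 ± 0.09. For E2 in WT, Cd59a, Gbp6, Hcn4, Zfp52 and Hunk were called without the score only. Their edgeR adjusted p-values lay near the threshold, 0.0326 to 0.0419 without the score and 0.0531 to 0.0649 with it. Fitting the score also used up a residual degree of freedom. Called with the score only were Asb4, Kera, Matn4, Cyp2f2 and Mylk4, of which Asb4 went from 4.71 ± 1.24 to 5.36 ± 0.72 and had a slope of 0.71. Esr1 itself under placebo went from -1.77 ± 0.20 (edgeR adjusted p = 0.0252) to -1.77 ± 0.22 (adjusted p = 0.0805).

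For the muscle genes the score is made of their own values, so their adjusted differences are near 0 by construction, with medians of -0.03, -0.10, 0.21 and -0.02 in the 4 comparisons of 2 groups. The values of 5 genes are given as a description. Tnnc1, whose slope on the score was 0.02, went from 3.23 ± 0.58 to 3.22 ± 0.59 for E2 in WT (edgeR adjusted p = 0.0600) and from -2.50 ± 0.48 to -2.45 ± 0.56 for genotype under E2 (adjusted p = 0.0963). Rbm24, with a slope of 0.42, went from -5.53 ± 1.43 to -4.14 ± 1.13 for E2 in ERalphaKO, and Scn4a from -3.55 ± 1.18 to -1.84 ± 0.85. Pygm went from -2.59 ± 0.82 to -0.70 ± 0.31. Ryr1 was the 1 gene of the set under the threshold with the score, for genotype under E2 (-0.99 ± 0.18, edgeR adjusted p = 0.0428). Because Ryr1 is itself part of the score, this p-value is not a test of Ryr1.

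The authors' deposited tables treated the muscle genes differently. For ERalphaKO E2 over WT E2, the authors' deposited table had 31 of the 42 muscle genes lower and none higher at an adjusted p under 0.05, where 3.75% of genes with an adjusted p were called. Acta1 stood there at -2.62 ± 0.62 (adjusted p = 0.00159), and the median of the muscle genes in the authors' deposited table was -2.32. The authors' estimates and errors were not of like scale with those above. For genotype under placebo, Acta1 had 0.10 ± 0.39 in the authors' deposited table and 0.68 ± 1.97 with DESeq2 here. The 2 sets are therefore not to be compared by size, and the cause was not tested. In the authors' deposited table for ERalphaKO E2 over WT E2, 359 of 14548 genes with an adjusted p were called lower. Of these 359, the 42 muscle genes and the 167 genes that followed the score made 103, or 28.7%. These 103 were 31 of the 42 muscle genes (73.8%) and 72 of the 167 (43.1%). The score slopes came from the same libraries as that comparison.

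For E2 in ERalphaKO, the authors' deposited table called 9 genes in all (0.0494%), and 3 of them were muscle genes: Rbm24 (-3.65 ± 0.47, adjusted p = 1.17e-10), Scn4a (-2.55 ± 0.46, adjusted p = 0.000322) and Itgb1bp2 (-2.31 ± 0.52, adjusted p = 0.0179). By p, Rbm24 and Scn4a ranked 1 and 2 of all genes in the authors' deposited table. No p-value was given there for 34 of the 42 muscle genes. For E2 in WT the authors' deposited table called 1 muscle gene, Tnnc1 (2.31 ± 0.45, adjusted p = 6.72e-05), where 1.75% of genes were called. For genotype under placebo the authors' deposited table called no muscle gene, where 1.82% of genes were called.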

How the data were processed

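Polyadenylated RNA of all cells of the fibrocartilage was sequenced in 12 libraries. The submitters' processing notes name bcl2fastq 2.17, TopHat and mouse build mm9. How reads were counted (tool, annotation, strand, multiple matches) is not given in the sources used here. Whole-number counts per gene symbol made up the deposited table. Tables of the authors' own comparisons gave a log2 fold change, its standard error, a p-value and an adjusted p-value for each gene, with column names of DESeq2 per the file headers.

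The members and lists were chosen with earlier results of these data known. Genes passing the group-wise filter of edgeR 4.0.16 (minimum count 10), 14832 of 23284, were scaled by TMM and tested by its quasi-likelihood F test under R 4.3.3, with 1 mean per group over 12 libraries and 8 residual degrees of freedom. Benjamini-Hochberg adjustment ran over all genes tested, with a threshold of 0.05. Standard errors were taken back from the F statistic. Passing this filter can rest on the group where a gene is high. Its level of 0.511 CPM was reached by 12 muscle genes in all libraries. In no ERalphaKO E2 library was it reached by 6: Tnni1, Myh7, Myh8, Xirp1, Rbm24 and Itgb1bp2. The muscle score is the mean log2 CPM (prior count 2) of the 41 genes tested. Intervals are Wilson 95% intervals and, with the 3-count floor, cover counting error only. PCR copies were not collapsed in this work.

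Genes with a value in every library are the most abundant of each role (1 for roles of up to 3 genes, up to 3 for larger ones) and both members of each fast and slow pair. Other lists name up to 4 genes by p of the slope. For the score, up to 5 genes by p called in 1 fit only are named, and the 10 genes most like the score have a mean of at least 1 CPM, stand on no list and have no predicted-gene symbol. Of the genes these rules name, 3 are not reported here. Pygm, Scn4a, Itgb1bp2, Cd79b and other single genes named with their differences were picked after their values were seen. Scripts were tested on simulated data with 200 changed genes. Alternatives were DESeq2 1.42.0, a replicate block, the score as covariate, other filters and scalings, fits of the compared groups alone, and leaving out each library. The normalized signal table and other comparisons of the authors were not used here.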

Additional observations from a re-analysis of the deposited data

Results flagged for a closer look

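In ERalphaKO placebo, the group of 4 libraries, 50 values were checked for a library far from the other 3, and 5 were found. Chance gives about 1 such value in 20 where values are independent and normally spread. These values include skewed percentages and genes that rise and fall together, so 5 of 50 cannot be set against that rate. The share of counts from the 42 muscle genes was 1.06% in replicate 3, against 0.00596% to 0.174% in the others. Actn3 stood at a log2 CPM of 1.73 in replicate 3, against 0.78 to 0.81. In replicate 1, which was poor in muscle RNA, the slow share of troponin T was 8.89% (4 of 45 counts), against 0.178% to 1.66%. The slow share of troponin C there was 88.2% (15 of 17 counts), against 0.140% to 0.790%, and that of the essential light chain 33.3% (4 of 12 counts), against 1.27% to 4.12%. The 3 slow shares rest on few counts.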

How the results depend on the processing

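The median log2 fold change of the 41 muscle genes kept its sign for E2 in ERalphaKO (-5.99 to -3.45), genotype under E2 (-4.24 to -2.98) and the difference of E2 effects (-10.68 to -2.80) when each library was left out in turn, and did not for E2 in WT (-1.79 to 5.19) and genotype under placebo (-0.93 to 6.76). In these omissions the genes called ran from 1 to 131 for E2 in WT, 1 to 4 for genotype under placebo, 51 to 236 for genotype under E2, 0 to 31 for the difference of E2 effects and 0 to 0 for E2 in ERalphaKO. Muscle genes called ran from 0 to 1 for genotype under E2 and likewise for E2 in WT, and stayed at 0 in the other 3, and genes following the score ran from 102 to 160. With DESeq2, 247, 5, 150, 497 and 102 genes were called (in the order of the report), with 1 muscle gene for E2 in ERalphaKO, and 252 followed the score. DESeq2 also called Tnnc1 for E2 in WT (adjusted p = 3.54e-05) and for genotype under E2 (adjusted p = 0.000289). For the difference of E2 effects it did not call Tnnc1 (adjusted p = 0.0520). With only the groups compared in the fit, 7 genes and 0 muscle genes were called for E2 in WT, 0 genes for genotype under placebo, and 66 genes and 4 muscle genes for genotype under E2. With the score as covariate the counts were 45, 1, 97 and 0, with 0 muscle genes for E2 in WT. With 115 listed muscle genes, the mean share was 0.512% in place of 0.202% in WT placebo, 0.426% in place of 0.124% in WT E2, 0.714% in place of 0.348% in ERalphaKO placebo and 0.228% in place of 0.00904% in ERalphaKO E2. The causes were not tested.

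Whether replicate numbers pair the samples was not settled. Deviations of same-numbered libraries correlated at -0.33 to 0.50 (median 0.20), over 0.1 in 9 of 15 pairs. Those of libraries with other numbers correlated at -0.50 to 0.52 (median -0.03), over 0.1 in 14 of 38 pairs. Of the 12 libraries, 4 correlated best with their own number. With the replicate number as a block, 18 genes were called for E2 in WT, 0 for genotype under placebo, 62 for genotype under E2 and 3 for the difference of E2 effects, with 0 muscle genes in each comparison where 1 was called without the block. Few muscle counts limit the slow shares in the ERalphaKO E2 libraries, 2 of which passed 100 counts for no pair. Of these, replicate 2 had 9.70 M counts in all. Replicate 3 had 19.9 M, against 19.3 M in WT E2 replicate 3.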
